A study of Mus musculus with 24 samples.

Results

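The genes described here are the adult alpha-globin genes *Hba-a1* and *Hba-a2*, the adult beta-globin genes *Hbb-b1* and *Hbb-b2*, and *Alas2*, read library by library in the cerebellum (CB) and hippocampus (HC) of mice. They were listed by name, and the list was chosen by the values of *Hba-a1* and *Hba-a2* in P35 CB, which moved in opposite directions with genotype. Of the 5 genes, 4 had a row among the 25793 gene rows of the 2 count tables and *Hbb-b2* had none. A further row, LOC100503605, carries the NCBI identifier of the beta-globin gene *Hbb-bs* and is given beside the members.
The 8 groups held 3 male mice each. 16GsoT/T mice are homozygous for a reciprocal translocation between chromosomes 5 and 8, induced by bis-acrylamide, with its chromosome 5 break between *Auts2* and *Galnt17*, and WT mice carry no translocation. Both genotypes were sampled at postnatal day 14 (P14) and day 35 (P35). Mouse names differ between all groups, but those of P14 CB are serial numbers only. Whether P14 CB and P14 HC came from the same mice is therefore not given. The labels give C57BL/6 as the background of all groups, but the library names of WT P14 HC, P35 HC and P35 CB carry B6C3. The paper describes B6C3 stock, a cross of C57BL/6 with C3H/He, and 16GsoT/T mice bred from homozygous parents. The mutants therefore come from 1 translocation line, and alleles fixed in that line cannot be told apart from the translocation.

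Hemoglobin is a tetramer of alpha- and beta-globin chains that carries oxygen in red cells, and each chain holds a heme group. Adult mice make the alpha chain from a pair of near-identical genes on chromosome 11 and the beta chain from a pair on chromosome 7, where inbred strains differ in the beta-globin haplotype. *Alas2* on the X chromosome encodes the erythroid form of 5-aminolevulinate synthase, which performs the first step of heme synthesis, whereas *Alas1* encodes the form used by other tissues. In brain, globin transcripts come with the red cells that remain in vessels and have also been found in some neurons and glia.

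In the GENCODE vM1 annotation of NCBIM37, the build that the labels name, *Hba-a1* lies at chr11:32183511-32184465 and *Hba-a2* at chr11:32196489-32197301, both on the plus strand and each with 3 exons. Their coding sequences of 429 bases differ at 1 base, C381T, counted from the A of the start codon with the *Hba-a1* base first. The base is in exon 3, at position 32184343 of chromosome 11 in *Hba-a1* and at position 32197160 in *Hba-a2*. The 30 coding bases around it are shown because they hold the only coding base by which a read can be given to one gene rather than the other, and the capital marks that base.
Hba-a1, chr11:32184329-32184358: catgcctctctggaCaaattccttgcctct
Hba-a2, chr11:32197146-32197175: catgcctctctggaTaaattccttgcctct
Over the 519 bases from the start codon to 90 bases past the stop codon, the spliced sequences differed at that base alone, so that 50 of the 470 stretches of 50 bases in *Hba-a2* (10.6%) and 100 of the 420 stretches of 100 bases (23.8%) are absent from *Hba-a1*. The remaining stretches fit both genes equally well. Which base the mice of each genotype carry was not tested, because no reads were analysed here.
The beta-globin pair is as close, since the coding sequences of *Hbb-b1*, at chr7:110975048-110976610, and *Hbb-b2*, at chr7:110961038-110962510, both on the minus strand, differ at 1 of 444 bases. The vM1 gene named *Hbb-b1* starts within the RefSeq promoter window of *Hbb-bs*, and vM1 *Hbb-b2* starts within that of *Hbb-bt*. Which of these loci the row *Hbb-b1* was counted on is not given in the sources used here. *Alas2* lies at chrX:146981918-147005181 on the plus strand, in 11 exon blocks.

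RefSeq promoter windows of GRCm38.p6 were matched for 3 of the 5 members by symbol and for *Hbb-bs* by identifier. They are shown because the *Hba* pair differed in counts while its promoters hardly differ, and because *Alas2* and LOC100503605 varied together. Each line gives the 250 bases before the start of transcription, and capitals mark matches on either strand to GATAA (the core of sites for GATA factors), to CACCC (that of Krüppel-like factors), to the CCAAT box and to the TATA box, searched as TATAA.
Hba-a1, chr11:32283422-32283671, plus strand: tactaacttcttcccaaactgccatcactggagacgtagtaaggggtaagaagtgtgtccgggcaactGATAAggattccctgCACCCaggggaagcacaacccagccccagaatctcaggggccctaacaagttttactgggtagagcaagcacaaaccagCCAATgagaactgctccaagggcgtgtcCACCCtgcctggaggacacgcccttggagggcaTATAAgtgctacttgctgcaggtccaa
Hbb-bs, chr7:103827929-103828178, minus strand: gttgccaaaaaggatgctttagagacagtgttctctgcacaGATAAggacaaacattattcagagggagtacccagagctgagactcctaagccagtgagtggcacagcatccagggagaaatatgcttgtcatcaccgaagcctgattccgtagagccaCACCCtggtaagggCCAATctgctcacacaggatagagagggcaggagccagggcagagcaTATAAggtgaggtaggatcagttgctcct
Alas2, chrX:150547167-150547416, plus strand: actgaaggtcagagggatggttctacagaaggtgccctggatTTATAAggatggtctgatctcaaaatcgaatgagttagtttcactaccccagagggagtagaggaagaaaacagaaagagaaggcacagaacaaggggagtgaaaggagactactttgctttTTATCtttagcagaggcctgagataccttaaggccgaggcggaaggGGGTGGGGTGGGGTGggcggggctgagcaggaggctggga
The windows of *Hba-a1* and *Hba-a2*, 300 bases long, are identical over 297 bases in a row, with an offset of 3 bases. GATAA was found 1 time in each of these promoters, and 22.6% of all 32851 promoters of this length hold it. CACCC matched 2 times in *Hba-a1*, 1 time in *Hbb-bs* and 3 times in *Alas2*, against at least 1 match in 52.01% of promoters. CCAAT was found in the globin promoters and not in that of *Alas2* (33.8% of promoters), and TATAA in all of them (22.8%). The match to TATAA lies close to the start of transcription in the globin promoters, but at the far end of the window in *Alas2*. Matches to TATAA on the opposite strands can overlap, as in *Alas2*.

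The libraries held between 2563968 and 40564789 reads on genes, with the most in P14 CB and the fewest in P35 HC, and no 2 libraries held identical counts. The mean share of all reads that fell on genes was 65.9% in WT and 67.0% in mutant P14 CB, and ranged from 37.7% to 42.3% over the remaining groups. WT and mutant P35 CB libraries did not overlap in this share (37.7% ± 0.06 and 42.3% ± 0.06, SD over 3 libraries), nor in reads with more than 1 mapping position (10.9% ± 0.31 and 8.26% ± 0.37). The library names give dual index reads for P35 CB and for WT mice W481 and W483 of P35 HC, and a single index for all others. The 2 genotypes of P14 HC were run on separate lanes, and effects of lane and of genotype cannot be told apart in that comparison. The regions carried their labels, as 10 cerebellar genes such as *Cbln1* and *Gabra6* summed to at least 7146 CPM, the counts scaled to 1000000 reads on genes, in each CB library and at most 370 in each HC library.

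In 5 of the 9 16GsoT/T libraries outside P35 CB almost all alpha-globin reads were on *Hba-a1* and few on *Hba-a2*. The same was seen in all 3 mutants of P35 CB, where the values of these genes led to their choice. Among reads on the *Hba* pair, *Hba-a2* took between 13.7% and 42.8% in the 12 WT libraries and between 0.23% and 24.3% in the 12 mutant libraries. In these 5 and 3 mutants the share was below the lowest WT value, with 2.29% as the highest of them, and in the other 4 mutants it was between 17.96% and 24.3%. Shares are given with exact binomial (Clopper-Pearson) 95% intervals, which cover counting error only.
In P14 CB the WT mice 1, 2 and 3 had *Hba-a2* shares of 17.4%, 16.7% and 18.1%. The 16GsoT/T mice 4 and 6 had 0.73% (interval 0.39 to 1.25) and 0.78% (0.44 to 1.26), whereas mouse 5 had 17.96% (16.2 to 19.9). Mouse 5 thus lay among the WT mice, and the other two stood far below.
In P14 HC the WT mice N4, N5 and N6 had 23.0%, 21.3% and 20.4%. Mutants A13 and A18 had 2 *Hba-a2* reads each, which gave 0.23% (0.028 to 0.82) and 0.30% (0.036 to 1.08), and A14 had 20.1% (17.7 to 22.8). As in CB of the same age, 1 of the 3 mutants was close to WT. The labels do not say whether the CB and HC mice of this age are the same.
In P35 HC the WT mice N10, W481 and W483 had 13.7% (9.40 to 19.1), 42.4% (37.1 to 47.8) and 40% (34.9 to 45.2). Mutants B10 and B11 had 24.3% (20.3 to 28.7) and 20.7% (14.4 to 28.2), and B12 had 2.29% (0.63 to 5.75) on 4 *Hba-a2* reads. The groups overlapped here, with mutants B10 and B11 above N10 and below the other two WT mice.
In P35 CB, the comparison whose values led to the choice of these genes, the WT mice M27, M28 and M29 had 42.8%, 42.2% and 39.9%. Mutants C19, C20 and C21 had 1.61%, 0.69% and 1.11%. All 3 mutants were far below all 3 WT mice, which is given as a description and not tested.

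**Figure D1:**
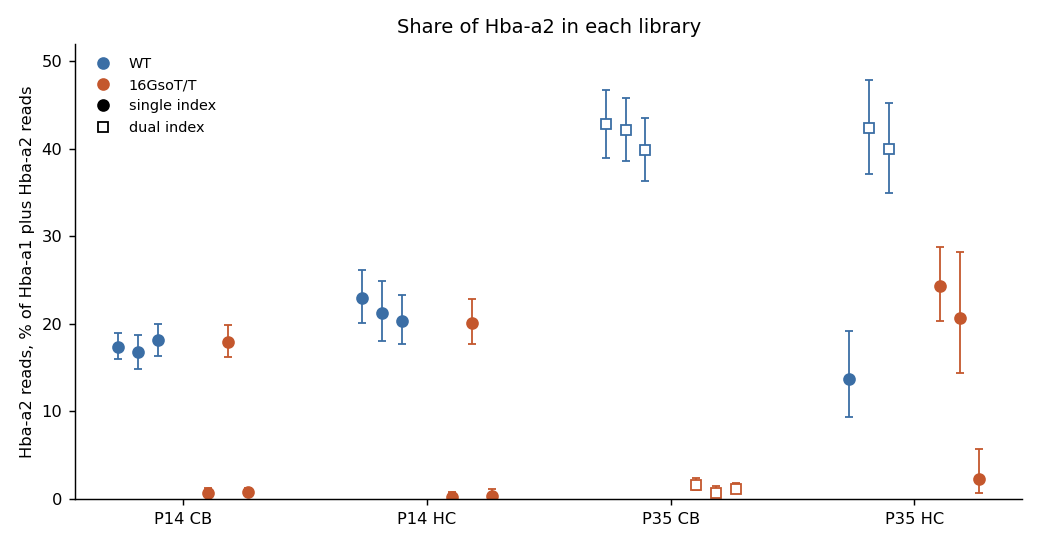
Share of *Hba-a2* in the reads on *Hba-a1* and *Hba-a2* (y axis, percent) for each library, by age and region (x axis), with exact 95% binomial intervals. WT libraries are blue and 16GsoT/T libraries orange, and open squares are dual-index libraries; 8 mutant libraries, 3 of them from P35 CB, lie between 0.23% and 2.29%, and the WT libraries between 13.7% and 42.8%.

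As a ratio, *Hba-a1* exceeded *Hba-a2* in every library. The ratio was 4.74, 4.97 and 4.51 in the WT mice of P14 CB and 136, 4.57 and 128 in the mutants 4, 5 and 6. It was 3.35, 3.70 and 3.91 in WT P14 HC and 438.5 (121 to 3627), 3.96 and 333 (91.8 to 2755) in mutants A13, A14 and A18. It was 1.34, 1.37 and 1.51 in WT P35 CB, against 61.3, 143 and 89.1 in C19, C20 and C21. In P35 HC the WT ratios were 6.28, 1.36 and 1.5, and those of B10, B11 and B12 were 3.11, 3.83 and 42.8 (16.4 to 159).
The WT share moved with the index type. It was between 13.7% and 23.0% in the 7 single-index WT libraries and between 39.9% and 42.8% in the 5 dual-index WT libraries, and its part in these values was not tested. Within single-index libraries the mutant shares ran from 0.23% to 24.3% over 9 libraries, and within dual-index libraries from 0.69% to 1.61% over 3. Both regions were single-index at P14, and between WT P14 CB and WT P35 CB index type and age cannot be told apart. WT P35 HC is the only group that holds both index types, so that age and region are the same there. In it the single-index N10 had 13.7%, and the dual-index W481 and W483 had 42.4% and 40%. This rests on N10 as the only single-index library of the group.

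Levels are given as CPM of reads on genes, scaled by the TMM method over all 24 libraries, and as descriptions with no test, since the groups of different ages and regions were sequenced on separate lanes. *Hba-a1* was highest in 16GsoT/T P35 CB, at 195 ± 46.7 CPM (SD, n = 3), and the 3 libraries of that group did not overlap with the next group. WT P35 CB followed with 63.2 ± 14.5, and the other 6 groups lay between 48.4 ± 3.59 (16GsoT/T P14 CB) and 60.01 ± 10.02 (16GsoT/T P14 HC). Each of these neighbours in the order overlapped with the next.
*Hba-a2* was highest in WT P35 CB, at 44.7 ± 7.44 CPM, followed by WT P35 HC with 28.5 ± 18.2. WT P14 HC had 14.5 ± 3.13, 16GsoT/T P35 HC 12.3 ± 11.5 and WT P14 CB 11.4 ± 3.71, and the lowest were 16GsoT/T P14 HC, P14 CB and P35 CB with 5.17 ± 8.68, 3.49 ± 5.38 and 2.37 ± 1.30. All 7 pairs of neighbours overlapped. Within a group the highest *Hba-a2* library exceeded the lowest 25.8-fold in mutant P14 CB, 101-fold in mutant P14 HC and 21.8-fold in mutant P35 HC. It was 5.34-fold in WT P35 HC and 3.62-fold in mutant P35 CB, and between 1.38- and 1.97-fold in the other 3 WT groups.
The sum of the *Hba* pair does not depend on which of the pair a counted read was given to, but reads with more than 1 mapping position are not in it. It was 64.7 ± 19.3 CPM in WT P14 CB and 51.9 ± 1.92 in mutants, 67.2 ± 13.5 and 65.2 ± 13.4 in P14 HC, and 81.4 ± 23.8 and 68.1 ± 27.2 in P35 HC. The mutant mice overlapped with WT in each of these. In P35 CB it was 90.8, 100 and 132 CPM in the WT mice M28, M27 and M29, and 143, 223 and 228 in C20, C19 and C21, a 1.83-fold difference between group means with no overlap. The share of all reads with more than 1 mapping position also did not overlap there, as given above, and its part in this difference was not tested. *Hba-a1* alone differed 3.08-fold in the fit of that comparison.

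**Figure D2:**
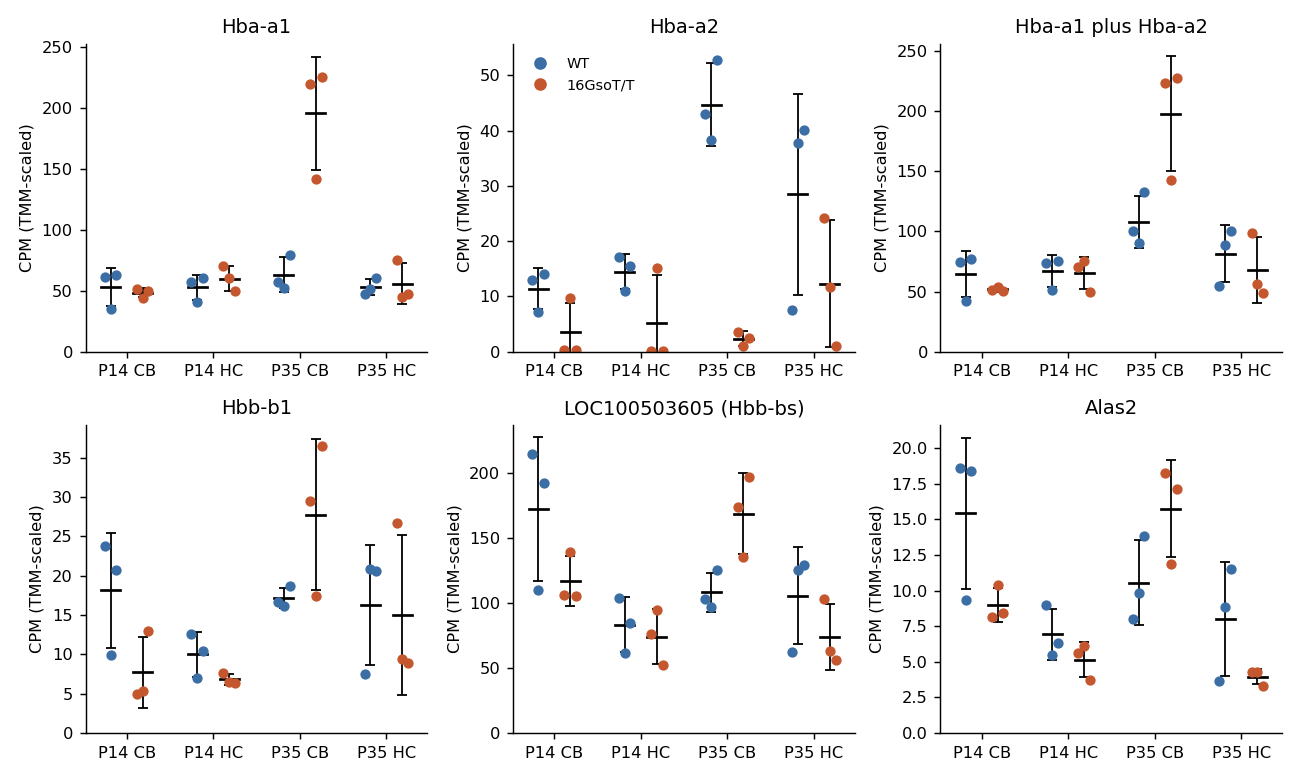
Level of each row, and of *Hba-a1* plus *Hba-a2*, in CPM scaled by TMM over 24 libraries (y axes, from 0), by age and region (x axes). Points are libraries, blue for WT and orange for 16GsoT/T, bars are the mean and SD of 3 mice; in P35 CB the *Hba-a1* libraries of 16GsoT/T lie between 142 and 225 CPM and those of WT between 52.5 and 79.6.

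LOC100503605 was the most abundant beta-globin row, with a mean of 173 ± 55.5 CPM in WT P14 CB, 169 ± 31.2 in 16GsoT/T P35 CB, and 6 further groups ranged from 74.1 ± 25.4 to 117 ± 19.2. *Hbb-b1* was lower, from 6.82 ± 0.73 CPM in 16GsoT/T P14 HC to 27.8 ± 9.65 in 16GsoT/T P35 CB. *Alas2* ran from 3.96 ± 0.55 CPM in 16GsoT/T P35 HC to 15.7 ± 3.41 in 16GsoT/T P35 CB, with WT P14 CB next at 15.4 ± 5.31. For these 3 rows all 7 pairs of neighbouring groups overlapped.
Per kilobase of annotated exons, WT P35 CB had 77.8 CPM of *Hba-a1*, 66.7 of *Hba-a2* and 4.39 of *Alas2*. In 16GsoT/T P35 CB these levels were 241, 3.53 and 6.55. Per kilobase the mean level of *Alas2* was below that of *Hba-a1* in all 8 groups and below that of *Hba-a2* in 7 of them, 16GsoT/T P35 CB being the exception. Reads that fit both *Hba* genes equally well are not resolved by the counts, whereas the exon lengths include every base. The per-kilobase levels of the *Hba* genes and of *Alas2* are therefore not directly comparable. Per-kilobase levels are not given for *Hbb-b1*, whose locus is uncertain.

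The genotypes were compared within each region and age with edgeR's quasi-likelihood test, and a gene was called at an adjusted p of at most 0.05 over all genes tested. Outside P35 CB none of the 4 members was called by edgeR, although in P14 CB, P14 HC and P35 HC 2, 1 and 1 of them, respectively, had an unadjusted p under 0.05. The share of all genes under that unadjusted p in these comparisons is not given here. DESeq2 called 1 member, *Alas2* in P14 CB, and gave *Hba-a2* no adjusted p in P14 CB and P14 HC. Over all genes tested, P14 CB had 0.0938% called higher and 0.413% called lower in mutants. For P14 HC these shares were 0.361% and 0.453%, and for P35 HC 0.112% and 0.0225%. These are shares of edgeR's calls, and DESeq2 called 0.394% of genes higher and 0.961% lower in P14 CB, 1.01% and 1.51% in P14 HC, and 0.213% and 0.084% in P35 HC. Less RNA of a transcript per cell and fewer cells that hold it cannot be told apart in these tissue samples.
In P14 CB all 4 members were lower in 16GsoT/T, with a median log2 fold change of -1.02 against 0.0022 over all genes. In P14 HC and P35 HC 3 of 4 were lower, with medians of -0.48 and -0.54. With index type as a covariate in P35 HC all 4 were higher, as *Hba-a1* had a log2 fold change of 0.29 and the other 3 turned positive. The groups of 3 mice overlapped for every member in these comparisons, whereas the share of all genes whose groups did not overlap was 13.6% for P14 CB, 23.8% for P14 HC and 13.1% for P35 HC.
*Hba-a1* was at 61.6, 35.4 and 63.1 CPM in WT P14 CB and at 51.0, 44.3 and 49.9 in mutants, a log2 fold change of -0.16 (SE 0.18, adjusted p = 0.875). Its log2 fold change was 0.19 in P14 HC (SE 0.16, adjusted p = 0.562) and 0.10 in P35 HC (SE 0.19, adjusted p = 0.939). The groups overlapped in all 3.
*Hba-a2* was at 12.995, 7.12 and 13.98 CPM in WT P14 CB and at 0.38, 9.71 and 0.39 in mutants 4, 5 and 6, a log2 fold change of -1.78 (SE 0.87, adjusted p = 0.603). In P14 HC the WT mice had 17.05, 11.01 and 15.4 CPM and A13, A14 and A18 had 0.16, 15.2 and 0.15, a log2 fold change of -1.48 (SE 0.99, adjusted p = 0.466). In P35 HC the log2 fold change was -1.16 (SE 0.62, adjusted p = 0.638).
In each P14 comparison 1 mouse decided the call for *Hba-a2*. Without mouse 5 the log2 fold change in P14 CB was -4.88 (adjusted p = 0.000657), and without A14 that in P14 HC was -6.45 (adjusted p = 0.0015). Each of these fits leaves out the mutant that lay within the WT range, so that its p-value depends on the values seen and is no evidence of a call. Over all alternatives the adjusted p of *Hba-a2* lay between 0.000657 and 0.845 in P14 CB and between 0.0015 and 0.691 in P14 HC. In P35 HC no omission gave a call, and with index type as a covariate, which leaves N10 as the only WT mouse for the comparison, the log2 fold change of *Hba-a2* was 0.79.

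*Hbb-b1* was at 23.8, 9.93 and 20.7 CPM in WT P14 CB and at 4.98, 5.29 and 12.9 in mutants, a log2 fold change of -1.24 (SE 0.39, adjusted p = 0.324). In P14 HC it was at 12.5, 6.95 and 10.5 in WT and 7.65, 6.51 and 6.29 in mutants, a log2 fold change of -0.54 (SE 0.21, adjusted p = 0.234). In both, 1 WT mouse lay within the mutant range. In P35 HC the log2 fold change was -0.07 (SE 0.42, adjusted p = 0.989), and it turned positive when B11, B12, W481 or W483 was left out. With index type as a covariate it was 1.08 (SE 0.53).
LOC100503605 was lower in P14 CB (log2 fold change -0.59, SE 0.21, adjusted p = 0.425), P14 HC (-0.16, SE 0.23, adjusted p = 0.759) and P35 HC (-0.50, SE 0.26, adjusted p = 0.631). None of these passed the test, and the groups overlapped in each.

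*Alas2* was at 18.6, 9.31 and 18.4 CPM in WT P14 CB and at 8.13, 10.4 and 8.45 in mutants. WT mouse 2 lay among the mutants and the other two at about 18 CPM. The log2 fold change was -0.80 (SE 0.23, adjusted p = 0.267 with edgeR), DESeq2 gave -0.80 with an adjusted p of 0.0152, and without mouse 2 edgeR gave -1.07 with an adjusted p of 0.0136. Over all alternatives the adjusted p lay between 0.0136 and 0.693.
In P14 HC *Alas2* was at 8.96, 5.50 and 6.34 CPM in WT and 5.58, 6.12 and 3.75 in mutants, a log2 fold change of -0.42 (SE 0.24, adjusted p = 0.400). In P35 HC it was at 3.63, 8.85 and 11.6 CPM in N10, W481 and W483 and at 4.26, 4.30 and 3.32 in B10, B11 and B12, a log2 fold change of -1.01 (SE 0.41, adjusted p = 0.488). Here the single-index WT mouse lay among the single-index mutants, and with index type as a covariate the log2 fold change was 0.15.

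In P35 CB the values of the members chose them, so they are described with no test. *Hba-a1* was at 57.4, 52.5 and 79.6 CPM in WT and at 220, 142 and 225 in mutants, a log2 fold change of 1.62 (SE 0.18). *Hba-a2* was at 43.0, 38.3 and 52.8 CPM in WT and at 3.58, 0.99 and 2.53 in mutants, a log2 fold change of -4.28 (SE 0.25). These 2 of the 4 members had groups that did not overlap, as had 47.3% of all genes in P35 CB, and 17.4% of all genes were called higher and 18% lower there.
*Hbb-b1* (log2 fold change 0.68, SE 0.21) and *Alas2* (0.57, SE 0.21) were higher on average with groups that overlapped, and LOC100503605 (0.63, SE 0.13) had no overlap. *Alas2* was at 7.999, 9.81 and 13.9 CPM in WT and at 18.3, 11.9 and 17.1 in mutants. C20 was the lowest mutant for all 5 rows.

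**Figure D3:**
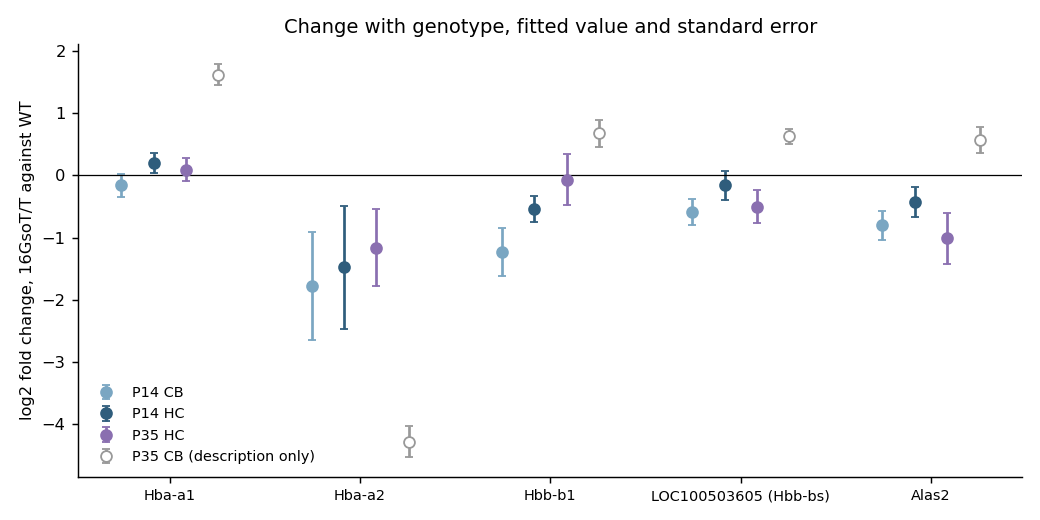
Log2 fold change of 16GsoT/T against WT (y axis) with its standard error for 5 rows (x axis) in each region and age, fitted over 6 libraries each. Open grey points are P35 CB, where values are a description; *Hba-a2* lies between -1.78 and -1.16 in the other comparisons and at -4.28 in P35 CB.

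The change with genotype was not shown to differ between regions at P14 or between ages in HC. In edgeR fits over 12 libraries, the interaction had adjusted p-values between 0.781 and 0.99 for genotype and region at P14 and between 0.696 and 0.952 for genotype and age in HC. The fit at P14 took all libraries as separate mice, which the labels do not establish. None of the 4 members had an unadjusted p under 0.05 in either, and DESeq2 called none of those to which it gave an adjusted p. Of all genes tested, 0% (0 of 16398) were called for the first and 0.00666% (1 of 15010) for the second with edgeR, where 1509 and 1708 had an unadjusted p under 0.05, and DESeq2 called 91 and 113.

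The balance of alpha- and beta-globin reads was taken as the reads on the *Hba* pair over those on *Hbb-b1* and LOC100503605. In P14 CB it was between 0.31 and 0.36 in WT and between 0.37 and 0.46 in mutants. In all other groups it was higher, from 0.61 in WT P35 HC to 1.10 in 16GsoT/T P35 CB. P14 CB was also the group with the larger share of reads on genes, and its part in this difference was not tested.
In P35 CB the balance was 0.84, 0.80 and 0.92 in WT and 1.10, 0.93 and 0.97 in mutants, with no overlap, and in P14 HC and P35 HC the genotypes overlapped. *Hbb-b1* took between 8.28% and 14.3% of reads on the beta-globin rows in WT and between 3.66% and 20.6% in mutants. The low end was mice 5 and 4 of P14 CB, with 3.66% and 4.46%, and the high end B10 of P35 HC.
For 100 reads on the *Hba* pair there were 21.9 to 25.0 reads on *Alas2* in WT P14 CB and 15.8 to 19.2 in mutants. In P14 HC there were 8.36 to 12.1 in WT and 7.49 to 8.12 in mutants. The genotypes did not overlap in either, whereas they overlapped in P35 CB (7.97 to 10.8 in WT, 7.51 to 8.32 in mutants) and in P35 HC (6.64 to 11.5 and 4.30 to 7.59).

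*Alas2* and LOC100503605 varied together across the 24 libraries, with a Pearson correlation of 0.94 for log2(CPM + 0.5), and of 0.88 for deviations from the group means. LOC100503605 ranked first among 14978 genes for *Alas2* by both measures. These correlations are descriptions over 24 libraries that share groups, depth and lanes. By level the next were *Cntnap5b* (0.88) and *Cyth3* (0.85), and by deviation LOC100503686 (0.87) and *Serpinb9* (0.84). The mouse with the most LOC100503605 was also that with the most *Alas2* in 6 of 8 groups, and the mouse with the least was the same for LOC100503605 and the *Hba* sum in 8 of 8 groups.

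**Figure D4:**
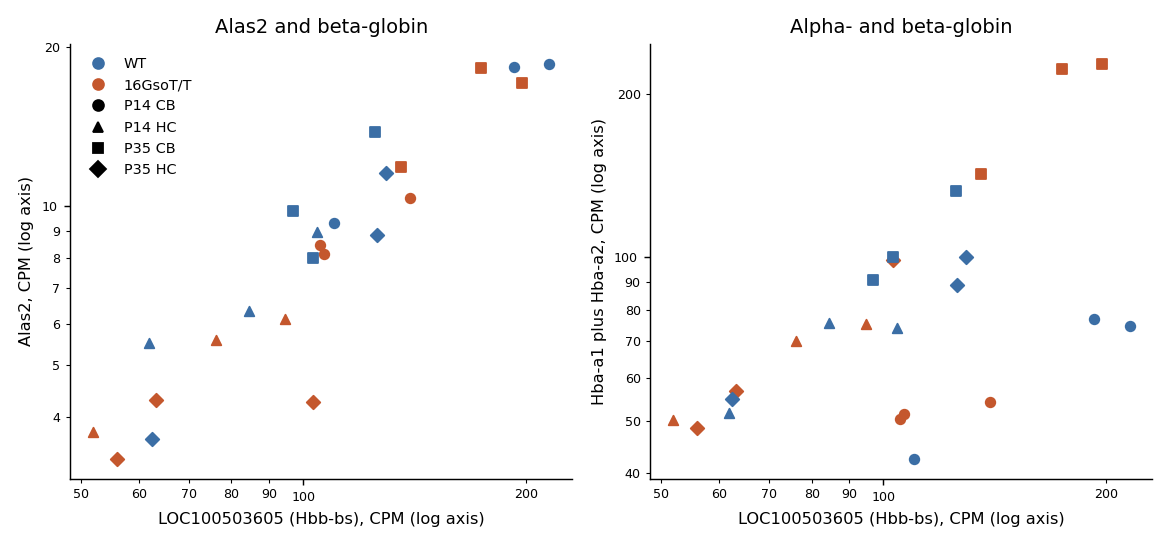
*Alas2* (left) and *Hba-a1* plus *Hba-a2* (right) against LOC100503605, each in CPM on log axes, with 1 point per library, blue for WT and orange for 16GsoT/T, and shapes for age and region. *Alas2* follows LOC100503605 with a correlation of 0.94 over 24 libraries, and the P14 CB libraries (circles) lie below the others at the right.

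*Hba-a1* was closest by level to *Nup133* (0.86), *Bub3* (0.85) and *Eif1* (0.85), and by deviation to *Fcgrt* (0.85), LOC100503605 (0.77) and *Atox1* (0.77). *Hba-a2* was closest by level to *Exosc9* (0.71), *Gm5148* (0.70) and *Capn11* (0.69), and by deviation to *Atl2* (0.77), *3110001D03Rik* (0.77) and *Nsmce4a* (0.77). *Hbb-b1* was closest by level to *Gstk1* (0.78), *Pgm2* (0.73) and *5830415F09Rik* (0.70), and by deviation to *Ndufa4* (0.81), *Rps13* (0.80) and *0910001L09Rik* (0.78). Between *Hba-a1* and *Hba-a2* the correlation was -0.15 by level and 0.31 by deviation.

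The embryonic globins *Hba-x*, *Hbb-y* and *Hbb-bh1* were at or near 0 in all groups. Among the other globins, *Cygb*, which encodes cytoglobin, was lower in mutants in P14 HC, at 44.9 CPM against 68.8 in WT (log2 fold change -0.61, SE 0.10, adjusted p = 0.0477). Outside P35 CB it was the only gene called by edgeR in this list, the following lists and the lists of cerebellar and hippocampal markers. Together these lists held 216 tests outside P35 CB, of which 34 had an unadjusted p under 0.05. DESeq2 called 9 of these, among them *Pcp2*, *Calb1* and *Prox1* of the cerebellar and hippocampal lists. Of all genes it called 0.394% higher and 0.961% lower in P14 CB, 1.01% and 1.51% in P14 HC, and 0.213% and 0.084% in P35 HC. The share of all genes with an unadjusted p under 0.05 is not given here, so the 34 cannot be set against it. *Ngb*, the gene of neuroglobin, had between 2.98 and 4.46 CPM in the HC groups.
Of the 8 other enzymes of heme synthesis, edgeR called 3 higher and 1 lower in P35 CB, against 17.4% of all genes higher and 18% lower. DESeq2 called 4 of the enzymes, against 13.4% of all genes higher and 11.3% lower. *Alas1* rose by 0.34 on the log2 scale (SE 0.10, adjusted p = 0.0193), from 42.5 to 54.6 CPM. *Alad*, whose product joins 2 molecules of aminolevulinate, rose by 0.81 (SE 0.20, adjusted p = 0.00725), and *Urod*, uroporphyrinogen decarboxylase, by 0.52 (SE 0.08, adjusted p = 0.000458). *Ppox*, protoporphyrinogen oxidase, fell from 29.4 to 13.02 CPM (log2 fold change -1.19, SE 0.12, adjusted p = 1.93e-05). The list's median log2 fold change was -0.01, against -0.0040 over all genes.
Of 9 carriers of heme and iron, edgeR called 2 lower in P35 CB, the transferrin receptor *Tfrc* (log2 fold change -0.51, SE 0.11, adjusted p = 0.00356) and the iron transporter *Slc11a2* (-0.28, SE 0.08, adjusted p = 0.0193). DESeq2 called 1 gene of this list there, and 2 of 9 is near the 18% of all genes that edgeR called lower. Of the 4 genes of heme breakdown, *Hmox1*, *Hmox2*, *Blvra* and *Blvrb*, edgeR and DESeq2 called 0 in P35 CB, where 1 had an unadjusted p under 0.05, and their log2 fold changes lay between 0.17 and 0.48.
Markers of red cells other than the members were sparse. Of 18 rows, *Ank1*, *Bpgm*, *Tspan33* and *Epor* made up most of the summed level of 134 to 824 CPM per library and are also transcribed in brain. *Slc4a1*, the anion exchanger of the red cell membrane, was the highest of the rest, with group means of 3.79 CPM in WT P14 CB, 2.003 in mutant P14 CB, 2.63 and 2.83 in WT and mutant P35 CB, and at most 0.59 in HC. In P14 CB, *Slc4a1* (log2 fold change -0.93, SE 0.23, adjusted p = 0.184) had groups that did not overlap, and DESeq2 called it. In P35 CB, *Slc4a1* had a log2 fold change of 0.07 (SE 0.29, adjusted p = 0.879). The *Hba* sum differed 1.83-fold there. The log2 fold changes were 1.62 for *Hba-a1*, -4.28 for *Hba-a2*, 0.68 for *Hbb-b1*, 0.57 for *Alas2* and 0.63 for LOC100503605. *Klf1* and *Gata1*, erythroid transcription factors, were at no more than 0.78 and 0.10 CPM in any group.
White cell markers summed to between 1.28 and 9.89 CPM per library over 11 rows. In P14 CB all 5 that were tested were lower in mutants, with a median log2 fold change of -1.10, and among them *S100a8* had -1.49 (SE 0.50, adjusted p = 0.357) and *Lcn2* -1.96 (SE 0.44, adjusted p = 0.115). None passed the test with edgeR or DESeq2, and 3 had an unadjusted p under 0.05. These moved in the same direction as the members in P14 CB, and their part in those values was not tested.
All 18 vessel markers were lower in mutants in P35 CB, where 1 member, *Hba-a2*, was also lower and the other 3 were higher. Of the vessel markers, edgeR called 17 lower, against 18% of all genes. Their summed level was 327 to 339 CPM in WT and 157 to 172 in mutants, and the list's median log2 fold change was -0.91. Among endothelial genes *Slco1a4* had -1.51 (SE 0.09, adjusted p = 2.7e-07) and *Tek* -1.32 (SE 0.16, adjusted p = 8.49e-05), and among mural cell genes *Rgs5* had -1.70 (SE 0.16, adjusted p = 1.16e-05) and *Myh11* -1.69 (SE 0.32, adjusted p = 0.00144). DESeq2 called 14 of the 18. In the other comparisons the medians were 0.01 (P14 CB), -0.02 (P14 HC) and -0.34 (P35 HC). Of 8 platelet rows *Gp1bb* alone was tested in P35 CB, where it fell (log2 fold change -0.52, SE 0.16, adjusted p = 0.0213 with edgeR) and DESeq2 did not call it. It was at 13.3 CPM in WT and 9.37 in mutants, whereas group means of the remaining platelet rows were at most 1.54 there. Whether the reads on *Gp1bb* came from platelets was not tested. *Pf4*, which encodes platelet factor 4, was at 0.62 CPM in WT and 0.63 in mutants there, below the filter.
Of 9 protein-coding genes within 150 kb of the *Hba* pair in vM1, a list made by distance after the members' values were seen, 6 had a row and 4 were tested. *Rhbdf1*, which encodes an inactive rhomboid protease, fell in P35 CB from 20.8 to 13.2 CPM (log2 fold change -0.67, SE 0.17, adjusted p = 0.00948). *Snrnp25* (0.33), *Mpg* (-0.06) and *Sh3pxd2b* (-0.11) had smaller log2 fold changes there that did not pass the test. Outside P35 CB edgeR called none of the 4, while DESeq2 called *Sh3pxd2b* in P14 CB, where edgeR gave a log2 fold change of 0.40 (SE 0.09, adjusted p = 0.101), and *Rhbdf1* in P14 HC (-0.48, SE 0.11, adjusted p = 0.0897 with edgeR). Each of the 2 had an unadjusted p under 0.05. *Hbq1b* and *Hbq1a*, the theta-globin genes next to the pair, had no row under these symbols, and the row *Hbq1* was at 2.53 CPM in WT and 2.55 in mutants in P14 HC. In P35 HC, where it was below the filter, *Hbq1* was at 0.26 CPM in WT and 1.26 in mutants. The groups did not overlap there, as was so for 13.1% of all genes tested. The CB group means were at most 0.21 CPM.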

How the data were processed

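Total RNA of CB and HC was sequenced as stranded mRNA libraries, made with a KAPA kit per the paper and a TruSeq kit per the labels. The authors aligned reads with TopHat2 2.0.8 to NCBIM37 and counted them per gene with HTSeq 0.6.1, per the labels' processing notes, and deposited raw counts, 1 table for each age, with 25793 gene rows. The annotation and strand option are not given in the sources used here. 0 columns of values were left out. Reads with more than 1 mapping position are a separate line of the tables and not in the gene counts.

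Counts were analysed in R 4.3.3 with edgeR 4.0.16 (TMM, filterByExpr set to at least 10 counts per gene and 15 in total, quasi-likelihood test, Benjamini-Hochberg adjustment over all genes tested), in 6 libraries per comparison and 12 per interaction, after a test on simulated data. All 4 members with a row passed this filter in each comparison. Fold changes come from these fits and CPM levels from TMM factors over 24 libraries. Alternatives were DESeq2 1.42.0, its size factors, no TMM factor, other filters on low counts, 1 fit per age, library sizes without the members, index type as a covariate and each library left out.

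The genes named are the members, for each the 3 genes with the highest correlation among genes with a mean of at least 1 CPM (by level and by deviation from group means), and at most 4 called genes per list and comparison, with abundant or background genes where their level is the point. The members and lists were chosen with earlier results of these data known. The planned share of *Hbb-b1* in *Hbb-b1* plus *Hbb-b2* could not be formed without an *Hbb-b2* row, and LOC100503605, chosen after the data were seen, took its place. Sequences come from NCBIM37, GENCODE vM1 and RefSeq promoters of GRCm38.p6. A result for a single gene is not reported here.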

Additional observations from a re-analysis of the deposited data

How the results depend on the processing

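No paired analysis was possible because the groups share no mouse or replicate numbers, and whether P14 CB and P14 HC came from the same mice is not given. Of the members' log2 fold changes, all kept their direction and their side of the threshold with DESeq2 size factors, without a TMM factor, without a filter on low counts, with at least 10 counts in every library where they could be tested, in 1 fit per age and with library sizes computed without the members. DESeq2 changed 1 call, *Alas2* in P14 CB (-0.80, adjusted p = 0.0152). Leaving out single mice gave 3 calls, for *Hba-a2* without mouse 5 (P14 CB) or A14 (P14 HC) and for *Alas2* without WT mouse 2 (P14 CB). For each call the mouse left out lay within the range of the other genotype. Leaving out single mice also changed the sign of 18 values, none of which passed the test. With index type as a covariate in P35 HC, the log2 fold change was 0.79 for *Hba-a2*, 1.08 for *Hbb-b1* and 0.15 for *Alas2*.

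With each mouse left out in turn, the log2 fold changes ranged in P14 CB from -0.39 to -0.03 for *Hba-a1*, -4.88 to -1.21 for *Hba-a2*, -1.84 to -0.98 for *Hbb-b1* and -1.07 to -0.63 for *Alas2*. In P14 HC they ranged from 0.04 to 0.31, -6.45 to -0.91, -0.75 to -0.35 and -0.56 to -0.20 in the same order of genes. In P35 HC they ranged from -0.19 to 0.23, -2.31 to -0.61, -0.84 to 0.22 and -1.37 to -0.64. In P35 CB they ranged from 1.499 to 1.82, -4.67 to -3.88, 0.43 to 0.94 and 0.41 to 0.80. The interaction of genotype and region at P14 ranged from 0.20 to 0.59, -4.75 to 3.40, 0.45 to 1.31 and 0.22 to 0.65, and that of genotype and age in HC from -0.39 to 0.059, -0.84 to 5.24, -0.30 to 0.77 and -0.95 to -0.22.

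The count of genes called was 81 in P14 CB, 124 in P14 HC, 4947 in P35 CB and 18 in P35 HC. DESeq2 called 234, 397, 3641 and 46. With each mouse left out the counts ranged from 33 to 181, 13 to 114, 3792 to 4762 and 6 to 139, and for the interactions from 0 to 22 at P14 and from 1 to 67 in HC, where DESeq2 called 91 and 113. A single fit per age called 326 in P14 HC and 37 in P35 HC. No filter on low counts gave 134 in P35 HC and at least 10 counts in every library 7. The cause was not tested.

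With pooled counts the mean *Hba-a2* shares moved by less than their SD. The mean *Hba-a2* share of 16GsoT/T went from 6.49% to 0.75% in P14 CB without mouse 5 and from 6.89% to 0.26% in P14 HC without A14, and the mean *Hbb-b1* share of 16GsoT/T P14 CB from 6.35% to 4.06% without mouse 6. The other mean shares moved by less than 1.5 times with any mouse left out. Relative to all reads in the table, of which 37.6% to 68.1% fell on genes, every member level was lower through the larger denominator. That 24 of 32 member levels moved by more than their SD is therefore no measure of how stable they are. In the order of groups, 19 of the 32 changed place. The low values of *Hba-a2* rest on 2 to 21 reads, and reads that fit both alpha-globin genes are not resolved by these counts.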
